A study of Glycyrrhiza uralensis with 15 samples.

Results

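In whole seedlings of Glycyrrhiza uralensis, the licorice plant, 29 genes separated every library of droughted plants given silicon from every other library, whether or not the plants also received a bacterium. They were found by a rule applied to the expression values of 30197 genes. All 6 libraries from silicon-treated plants had to lie above, or all below, the 9 libraries from plants without silicon. The largest group mean had to reach 5 CPM (the reads of a gene scaled to a library total of 1000000), the means of the silicon groups had to lie within 2-fold of each other, and the largest mean of the groups without silicon had to be under 2 times the smallest. Of the 29 genes, 17 were higher and 12 were lower with silicon.

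Full-length cDNA of whole plants at 45 days was read on a nanopore instrument, in 15 libraries of 5 groups with 3 replicates each. Seeds were sown in sterilized desert sand without nutrients. Watered plants (CK) were kept at 65 to 75% moisture. The droughted groups were held at 35 to 45% moisture without addition (D), with strain G5 of Bacillus pumilus (DB) or with silicon at 2 mM (DSi). A further group received drought, G5 and silicon (DBSi), and the labels give neither its moisture nor its silicon dose. No watered group received silicon, so these genes describe silicon in droughted plants only. Libraries are written by group and replicate, so that DSi-3 is replicate 3 of DSi.

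Plants take up silicon from the soil solution as silicic acid through membrane channels and transporters, and lay it down as silica in cell walls and between cells. Grasses usually accumulate much of it and most legumes less, and supplied silicon is known for easing growth under water shortage. Bacillus pumilus is a soil bacterium that lives on and around roots, and some strains promote plant growth. The files do not pair the gene IDs with names, so no role can be given to any of the 29 genes, and the lists for silicon transport, water deficit, antioxidants and licorice metabolism and the organ markers were not run. The labelled tissue could not be checked against markers for the same reason. In RNA from whole plants, fewer cells of a type and less RNA per cell cannot be told apart.

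The libraries held 3039422 to 4043823 reads assigned to genes, so that a single read was worth 0.247 to 0.329 CPM. DSi-3 was the deepest library and had the most genes with a read (25321), and DB-3 had the fewest (23011). The most alike of all pairs of libraries came from different groups, DB-2 without silicon and DSi-2 with it (Spearman's rho 0.960 across genes, which are not independent replicates). Their reads still differed by more than counting noise, with a chi-square of 5.86 per degree of freedom, the lowest of all pairs. The lowest within a group was 8.93, in D-1 and D-3. Reads of amplified cDNA are not independent molecules, so a chi-square above counting noise cannot settle whether 1 library repeats another. All 15 libraries were kept. The rule asks DB-2 and DSi-2 to lie on opposite sides, and the part of their likeness in the number of genes was not tested. Without DB-2 the rule found 50 higher and 52 lower genes, and without DSi-2 40 and 40. Nothing in the labels ties replicates to different pots, and the p-values given here therefore measure only the spread between these libraries, which may be technical.

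Few genes passed the rule. Of 16871 genes with a group mean of at least 5 CPM, 13357 also met both fold limits, and the 29 genes were 0.217% of these, the 17 higher genes 0.127% and the 12 lower genes 0.0898%. The same rule with the roles of silicon and G5 exchanged gave 191 genes of 13740, of which 32 were higher and 159 lower with G5, and both rules use the DBSi libraries. The number of genes that passed rose when the watered plants or some single libraries were left out. Leaving out CK gave 43 higher and 18 lower genes, and leaving out DSi-3 gave 60 and 36. The higher genes numbered 30 without DBSi-2 and 26 without DBSi-1, and the lower genes 25 without DBSi-2 or DSi-1, 22 without D-1 and 19 without D-3. Leaving out libraries loosens the demand for separation, so a gene can then drop out only through a level or fold limit. All 29 genes were among those found in each case. When libraries were rescaled by the median of ratios in place of their total, 18 higher genes passed, of which 14 were among the 17, and 21 lower genes passed, of which 8 were among the 12.

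**Figure D1:**
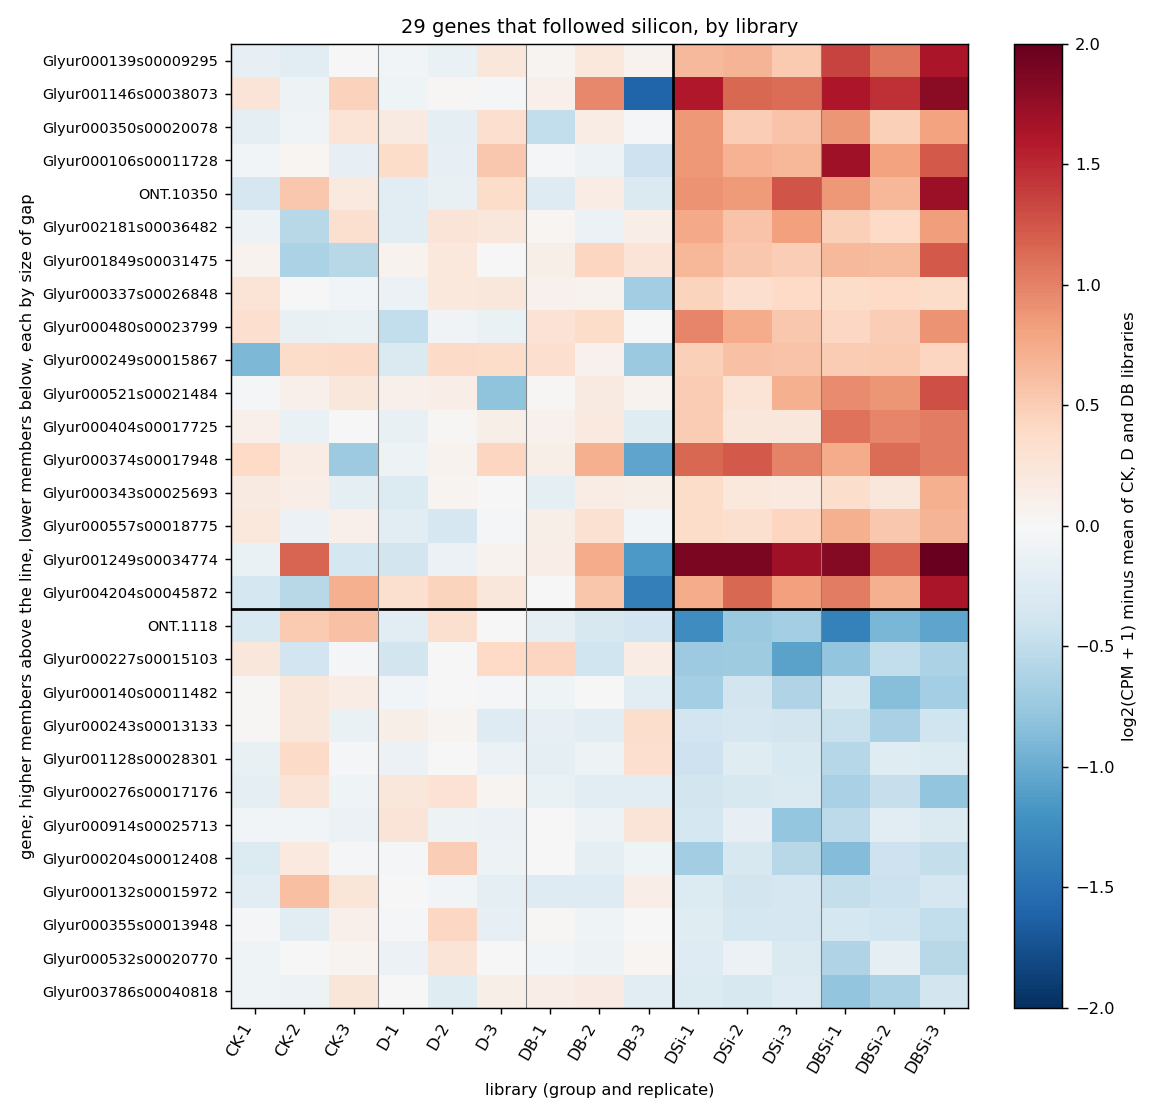
Each cell is log2(CPM + 1) of a gene in a library minus the mean of that gene over the 9 CK, D and DB libraries; genes stand in rows, the 17 higher above the line and the 12 lower below, and libraries in columns. The 6 silicon libraries on the right are red for all higher and blue for all lower genes, as the rule demands, and DB-3 is the lowest of the 9 others in 7 of the 17 higher genes. The share of all genes in which DB-3 is the lowest was not counted.

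Among the higher genes, mean CPM over the 6 silicon libraries was 1.30 to 3.54 times the mean over the other 9, with a median of 1.67. The ratio was 2 or more in 6 of the 17, at least 1.5 in 13 and under 1.5 in 4. Their mean over all 15 libraries ran from 3.36 to 152 CPM with a median of 26.5, which corresponds to 170 to 7629 reads. These values chose the genes, so they are a description and carry no test.

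Glyur000139s00009295 had the widest gap of the higher genes. It was measured at 19.4, 18.5 and 22.1 CPM in CK, at 20.9, 19.7 and 25.8 in D and at 22.7, 25.5 and 23.0 in DB. With silicon it reached 34.8, 35.4 and 31.7 CPM in DSi and 57.4, 47.1 and 69.8 in DBSi. D overlapped both CK and DB, every DB library lay above every CK library, DSi stood above all 3 groups, and DBSi stood above DSi. Means with their SD were 19.99 ± 1.85 CPM for CK, 22.2 ± 3.22 for D, 23.7 ± 1.53 for DB, 34.0 ± 2.03 for DSi and 58.1 ± 11.4 for DBSi, with n = 3 each. Its DSi and DBSi means differed by a ratio of 1.71, the largest among the higher genes and so the one nearest the limit of 2.

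Glyur001146s00038073 had the second widest gap. Its values were 9.39, 7.11 and 11.03 CPM in CK, 7.17, 7.90 and 7.60 in D, and 8.37, 15.96 and 1.86 in DB. With silicon they were 25.5, 18.3 and 17.8 CPM in DSi and 25.8, 23.1 and 29.5 in DBSi. The 3 DB libraries held both the highest and the lowest of the 9 values without silicon, and DSi and DBSi overlapped. The ratio of silicon to other libraries was 2.75.

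Glyur001249s00034774 had the largest ratio, 3.54, and was also the higher gene nearest the limit on the spread of CK, D and DB. It stood at 3.56, 10.2 and 2.90 CPM in CK, at 2.87, 3.62 and 4.25 in D and at 4.48, 7.37 and 1.24 in DB. In DSi it was 17.4, 17.4 and 15.1 CPM, and in DBSi 16.8, 10.3 and 18.6. The separation was narrow in spite of the ratio, since CK-2 at 10.2 CPM almost met DBSi-2 at 10.3. Without those libraries the lowest silicon value would be 15.1 and the highest other value 7.37.

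By CPM, the higher genes at the greatest mean were Glyur001849s00031475 and Glyur000480s00023799. Glyur001849s00031475 was at 124, 76.5 and 81.0 CPM in CK, at 126, 137 and 120 in D, at 129, 161 and 143 in DB, at 189, 173 and 168 in DSi and at 186, 184 and 278 in DBSi. Its group means ran from 93.9 ± 26.4 CPM in CK to 216 ± 53.7 in DBSi (SD, n = 3 each), and DBSi-3 stood apart from the other silicon libraries. Glyur000480s00023799 was at 87.7, 62.6 and 62.7 CPM in CK, at 49.0, 65.5 and 62.9 in D, at 84.6, 89.3 and 68.6 in DB, at 137, 116 and 101 in DSi and at 92.8, 97.8 and 129 in DBSi. Here DSi and DBSi overlapped, and DBSi-1 lay only just above DB-2.

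The lower genes moved by less. Their silicon mean was lower than the other mean by a factor of 1.26 to 2.06, with a median of 1.38. The factor was 2 or more in 1 of the 12, at least 1.5 in 3 and under 1.5 in 9. Their mean over all libraries ran from 8.21 to 603 CPM with a median of 45.0, or 412 to 30206 reads.

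ONT.1118, whose ID is of the kind given to loci outside the reference-type IDs, had both the widest gap and the largest factor, 2.06. It was at 55.0, 98.5 and 103 CPM in CK, at 59.0, 85.2 and 67.7 in D and at 59.5, 54.6 and 51.8 in DB. With silicon it was at 28.3, 40.2 and 42.3 CPM in DSi and at 26.1, 35.6 and 32.3 in DBSi. The CK, D and DB values overlapped, although their means ran from 85.4 ± 26.4 in CK over 70.7 ± 13.3 in D to 55.3 ± 3.86 in DB (SD, n = 3 each), the widest such spread among the lower genes, and DSi and DBSi overlapped as well.

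Glyur000227s00015103 had the next gap and was the second by mean CPM. It was at 289, 188 and 242 CPM in CK, at 191, 249 and 325 in D, at 332, 187 and 273 in DB, at 149, 150 and 117 in DSi and at 143, 175 and 160 in DBSi. The groups without silicon had nearly equal means, 240 ± 50.2, 255 ± 67.3 and 264 ± 73.0 CPM, against 139 ± 18.8 in DSi and 159 ± 15.6 in DBSi (SD, n = 3 each). Glyur000204s00012408 had the greatest mean CPM of all 29 genes. Its values were 565, 781 and 671 CPM in CK, 672, 966 and 637 in D, 689, 599 and 646 in DB, 421, 549 and 463 in DSi and 376, 513 and 492 in DBSi. The highest silicon library, DSi-2 at 549 CPM, lay just below CK-1 at 565.

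**Figure D2:**
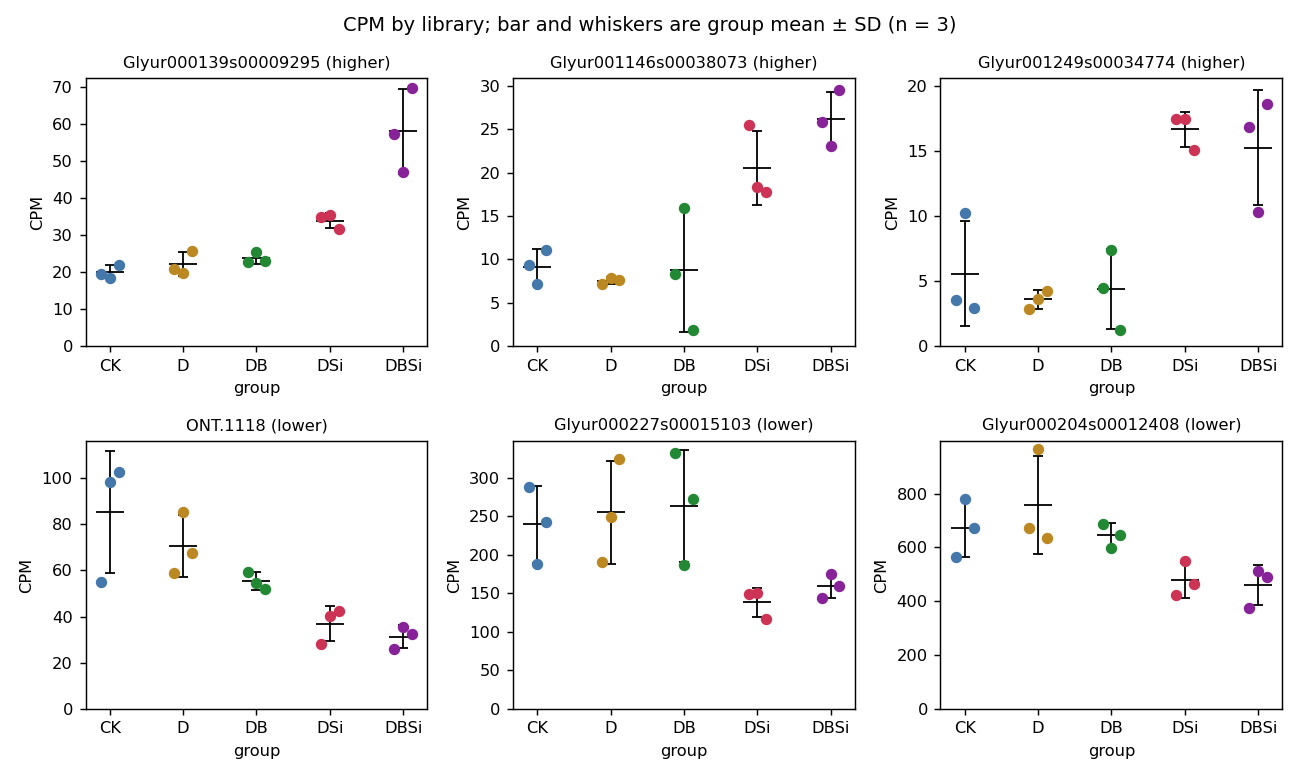
CPM of 3 higher and 3 lower genes in each library (points) by group, with the group mean and SD (bar and whiskers, n = 3). DSi and DBSi stand above CK, D and DB in the upper row and below them in the lower row, and Glyur000139s00009295 is the 1 panel in which DSi and DBSi do not overlap.

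Several genes barely met or barely missed the rule. Glyur004204s00045872 was the higher gene with the narrowest separation, its lowest silicon library, DBSi-2 at 30.8 CPM, lying 1.001 times above its highest other library, CK-3 at 30.8. Glyur000476s00022366 just missed it at 0.995, with means of 7.86, 10.6 and 10.8 CPM in CK, D and DB and 13.5 and 14.1 in DSi and DBSi. The higher gene of lowest level was Glyur000521s00021484, with a largest group mean of 5.89 CPM, and Glyur000144s00012203 failed the level limit alone at 1.98 CPM. Of the higher side, 5 genes failed only because DSi and DBSi differed by 2-fold or more. The nearest of these was Glyur001112s00036226, whose means were 31.8, 21.9 and 27.8 CPM in CK, D and DB, 75.5 in DSi and 152 in DBSi, at a ratio of 2.02. Glyur000193s00013956 failed only the limit on CK, D and DB, at 2.24. On the lower side Glyur003786s00040818 passed at a separation of 1.007, and Glyur000626s00022201 missed at 0.9999. The lowest of the lower genes was Glyur000140s00011482 with a largest mean of 10.6 CPM, and 2 genes failed the level limit alone, the nearest being Glyur007299s00046714 at 1.34 CPM. No gene on the lower side failed only a fold limit.

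None of the groups without silicon had the greatest mean of the 3 in all of these genes. Among the 17 higher genes the greatest of the CK, D and DB means was in CK for 5, in D for 7 and in DB for 5. Among the 12 lower genes it was in CK for 5, in D for 4 and in DB for 3. Over the 13357 genes that met the level and fold limits, CK was the greatest in 43.3%, D in 31.3% and DB in 25.5%. The rule held these 3 means within 2-fold of one another, so genes that also changed strongly between watered and droughted plants were left out.

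Single libraries took the outer and inner positions unevenly. In the 17 higher genes DBSi-3 was the highest silicon library in 9, and DSi-3 and DBSi-2 were the lowest in 6 and 5. On the other side DB-2 was the highest of the 9 in 6, and DB-3 the lowest in 7. Relative to the mean of the libraries without silicon, the median over the higher genes of the log2(CPM + 1) difference was 1.03 in DBSi-3 and 0.57 in DSi-3. In the 12 lower genes DBSi-1 was the lowest library in 6 and DSi-2 the highest silicon library in 5, with median differences of −0.59 and −0.33. DSi-3 was the deepest library and DB-3 had the fewest genes read, and the part of either in these positions was not tested.

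Deviations within groups were compared between genes. After removal of group means, the mean correlation over the 136 pairs of higher genes was 0.257, with single pairs from −0.555 to 0.848, and over the 66 pairs of lower genes it was 0.111, from −0.652 to 0.793. Over all genes that met the level and fold limits the mean was 0.0365, and between higher and lower genes it was −0.112. All these correlations run over the same 15 libraries, and the genes were chosen on them, so they are a description.

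Silicon was then compared within the droughted groups, without G5 as DSi against D and with G5 as DBSi against DB. The 2 pairs of groups share no library, but limma fitted all 15 libraries together. Both comparisons thus rest on 1 estimate of the spread for each gene. Differences are on the log2(CPM + 1) scale, which understates the change of low genes, and adjusted p-values are those of limma with Benjamini-Hochberg adjustment over 22654 genes, called under 0.05. For the mean of DSi and DBSi against the mean of D and DB, the median difference was 0.69 in the higher and −0.43 in the lower genes. limma called 9 of the 17 higher genes and 3 of the 12 lower genes, against a background of 1.89% and 0.296% of all genes tested, and 16 and 11 had an unadjusted p under 0.05, against 8.83% and 3.67%. edgeR called 9 and 3, against 1.62% and 0.269%, and DESeq2 11 and 5, against 2.56% and 0.834%. The same libraries chose the genes, so nothing is read from these counts or from the calls and p-values of single genes that follow. Of the lower genes only 1 was called without D-2, D-3, DB-1, DB-3, DSi-1, DSi-3, DBSi-1 or DBSi-3. ONT.1118 differed by −0.87 ± 0.17 (SE, adjusted p = 0.0135) and Glyur000227s00015103 by −0.77 ± 0.17 (SE, adjusted p = 0.0273). The latter lost its call when any 1 of those 8 libraries was left out, in limma without the trend and with the replicate number as a block. Glyur001249s00034774 differed by 1.85 ± 0.32 (SE, adjusted p = 0.00841), Glyur000139s00009295 by 0.92 ± 0.12 (SE, adjusted p = 0.00205) and Glyur001146s00038073 by 1.56 ± 0.32 (SE, adjusted p = 0.0189). The call of Glyur001146s00038073 was lost without D-1, DSi-1 or DBSi-3. Glyur000480s00023799 differed by 0.69 ± 0.13 (SE, adjusted p = 0.0153) and lost its call without DSi-1. The gene of greatest mean CPM in each direction was not called, with limma adjusted p = 0.0843 in Glyur001849s00031475 (higher) and 0.0565 in Glyur000204s00012408 (lower).

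Without G5, CPM in DSi was 1.24 to 4.65 times that in D in the higher genes, with a median of 1.52, and lower by a factor of 1.19 to 1.91 in the lower genes, with a median of 1.36. limma called none of the 17 or the 12, against 0.0177% and 0.00883% of all genes, while 12 and 7 had an unadjusted p under 0.05, against 5.72% and 2.24%. edgeR called 0 and 0, against 0.0132% and 0%, and DESeq2 2 and 2, against 0.49% and 0.199%. The nearest was Glyur000480s00023799, which differed by 0.98 ± 0.19 (SE) with adjusted p = 0.108. With G5, CPM in DBSi was 1.32 to 3.49 times that in DB in the higher genes, with a median of 1.85, and lower by 1.23 to 1.76 in the lower genes, with a median of 1.39. limma called 3 of the 17 and 0 of the 12, against 2.22% and 0.225% of all genes, and 14 and 9 had an unadjusted p under 0.05, against 7.21% and 3.87%. edgeR called 4 and 0, against 2.01% and 0.203%, and DESeq2 8 and 1, against 2.77% and 0.539%. The 3 called were Glyur000139s00009295, Glyur000106s00011728 and Glyur000404s00017725, which rose by 1.24, 1.43 and 1.01 (limma adjusted p = 0.00133, 0.00309 and 0.00258). The rule had already required the DSi libraries to lie beyond the D libraries and the DBSi libraries beyond the DB libraries in each of the 29 genes, so the calls and p-values of both comparisons describe values that chose the genes and support nothing. Without DB-2 the count of higher genes called was 8.

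**Figure D3:**
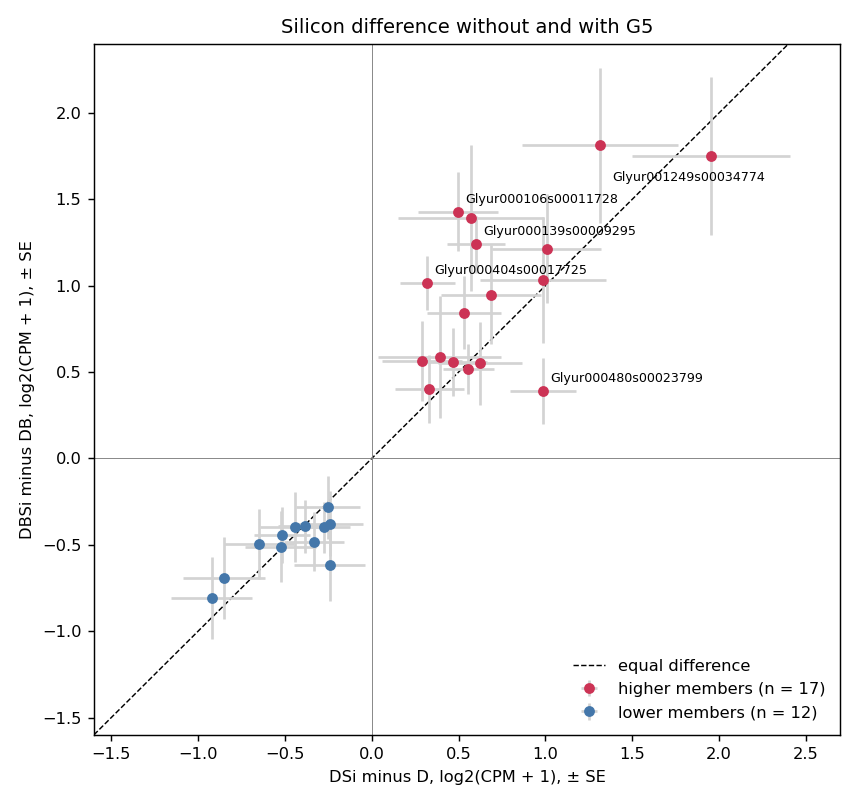
Each point is a gene, with the difference of DSi from D on the x axis and of DBSi from DB on the y axis, both in log2(CPM + 1) with bars of ± SE, and the dashed line marks equal differences. Both differences have the same sign in all 29 genes, which the rule fixes, and Glyur000480s00023799 lies below the line while Glyur000106s00011728, Glyur000139s00009295 and Glyur000404s00017725 lie above it.

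The silicon difference with G5 could not be told from that without it in any of the 29 genes by an adjusted test. limma, edgeR and DESeq2 each called 0 interactions among them, against 0.132%, 0.075% and 1.19% of all genes. By limma 4 higher and 0 lower genes had an unadjusted p under 0.05, against 7.78% of all genes. The 4 were Glyur000404s00017725, Glyur000106s00011728, Glyur000139s00009295 and Glyur000480s00023799, with limma adjusted p of 0.318, 0.380, 0.425 and 0.618. In the last the difference was the larger without G5. The rule limits DSi and DBSi to within 2-fold of each other, and D and DB to under 2-fold. Large interactions were thus kept out beforehand.

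DBSi lay further from the groups without silicon than DSi in 11 of the 17 higher and 10 of the 12 lower genes. Over all genes that met the level and fold limits, DBSi was above DSi in 40.7% and below it in 59.3%. After median-of-ratios scaling DBSi lay further out in 13 of the higher and 6 of the lower genes, and above DSi in 51.5% of all, so the tilt of the lower genes rests on the scaling. limma called DBSi against DSi in 2 higher and 0 lower genes, against 1.68% and 0.23% of all, and 3 and 0 had an unadjusted p under 0.05, against 5.69% and 7.4%. edgeR also called 2 and 0, against 1.95% and 0.146%, as did DESeq2, against 3.03% and 0.574%. The genes called by limma were Glyur000139s00009295 (0.74 ± 0.17, SE, adjusted p = 0.0346) and Glyur000404s00017725 (0.71 ± 0.16, SE, adjusted p = 0.0315). Glyur000404s00017725, named after its values were seen, was at 33.0, 27.0 and 27.0 CPM in DSi and at 49.6, 46.2 and 47.8 in DBSi, with 19.2 to 26.4 CPM in the other 9 libraries. No limma call was left when DBSi-3, DBSi-1, DSi-3 or DSi-2 was left out, and 1 was left without DB-1, DSi-1 or DBSi-2. The rule used the values of these libraries and held the DSi and DBSi means within 2-fold of each other. These calls and p-values are therefore a description, and nothing is read from them.

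Since every library had a part in choosing the 29 genes, the rule was also applied to 10 libraries and the genes it chose were read in the 5 of the replicate number left out, 2 with silicon and 3 without. This reading was added after the data were seen and is a description. With replicate 1 left out, 73 higher genes were chosen, and 28 of them (38.4%) had both left-out silicon libraries above the other 3, against 12.9% of all genes under the same limits. With replicate 2 left out the figures were 31 of 211 (14.7%) against 5.84%, and with replicate 3 left out 29 of 106 (27.4%) against 10.9%. Lower genes gave 30 of 83 (36.1%) against 9.35%, 37 of 210 (17.6%) against 12.9% and 29 of 123 (23.6%) against 8.78%. The share was above that of all genes in each of the 6 readings, and in each most of the chosen genes were not separated in the left-out libraries. For replicates 1, 2 and 3 the chosen genes included 17, 17 and 16 of the 29 on the higher side and 12, 12 and 12 on the lower. The rule separates those in every library, so each of them was bound to be counted as separated in the left-out libraries. They were 17 of the 28, 17 of the 31 and 16 of the 29 separated higher genes. On the lower side they were 12 of the 30, 12 of the 37 and 12 of the 29. The shares thus describe choices on 10 libraries and not the 29 genes, and nothing is read from their standing above those of all genes.

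The size of the difference also shrank in libraries that had no part in the choice. Higher genes had a median ratio of 1.53, 1.59 and 1.51 in the libraries that chose them and 1.28, 1.13 and 1.38 in those left out, for replicates 1, 2 and 3. Lower genes had factors of 1.47, 1.53 and 1.45 against 1.22, 1.17 and 1.102. The 3 choices share libraries and genes, so they are not independent of one another. Between libraries of different groups, deviations from the group means correlated from −0.223 to 0.334 in the 30 pairs of equal replicate number (median −0.0376) and from −0.412 to 0.291 in the 60 other pairs (median 0.0041).

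**Figure D4:**
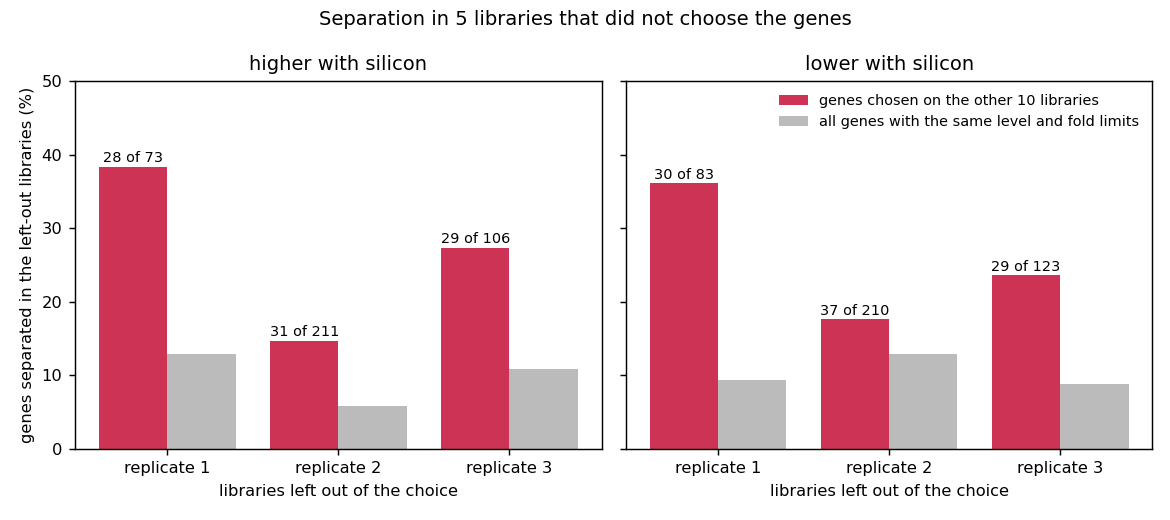
Bars give the percentage of genes whose 2 left-out silicon libraries lay beyond all 3 left-out others, by the replicate left out (x axis), for genes chosen on the other 10 libraries (red, counts above the bars) and for all genes under the same level and fold limits (grey). The red bar is the taller in all 6 pairs, from 14.7% against 5.84% to 38.4% against 12.9% for higher genes, and none reaches 50%. The red counts include genes of the full rule, which separates them in every library.

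The use of isoforms within a gene was not part of the rule. Isoforms were placed in genes by their IDs or by reads equal in all 15 libraries, and all reads of the 29 genes were accounted for by 73 isoforms, 45 of higher and 28 of lower genes. A single isoform was found in 6 higher and 3 lower genes, 31.0% of the 29 against 33.4% of 12879 genes at the same limits. The leading isoform held at least 90% of reads in 19 genes, 65.5% against 67.8%. Of the 27 genes with a reference-type ID, 14 had under 50% of their reads in an isoform carrying that ID, 51.9% against 57.7%, and 7 had none. By direction this was 6 of 16 higher genes (37.5%) and 8 of 11 lower genes (72.7%), on either side of the share over all genes, and the difference between directions was not tested.

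Isoform use was compared between the mean of DSi and DBSi and the mean of D and DB in the 8 higher and 8 lower genes with at least 2 isoforms past the filter. limma's diffSplice called 0 of the 16, against 0.626% of 7190 genes, and 1 had an unadjusted p under 0.05, against 10.3%. This was Glyur000106s00011728, named here after its values were seen, with a diffSplice adjusted p of 0.230. With no filter on low isoforms its adjusted p was 0.0272, and it was then called. Its isoform with the reference ID had 7, 6 and 8 reads in DSi and 17, 7 and 7 in DBSi, against 0 to 2 reads in each of the other 9 libraries. It therefore passed the filter of 1 CPM in 3 libraries only through the silicon libraries, where it is high, and it had the lowest isoform p of the gene, so nothing is read from the p of this gene. That isoform held 6.28 ± 1.07% of the reads of the gene in the 6 silicon libraries and 1.53 ± 1.46% in the other 9 (SD over libraries), and the groups did not overlap. The leading isoform, ONT.5158.1, held 76.3 ± 3.21% and 73.7 ± 9.85%. Among lower genes the lowest p was 0.0891 in Glyur000204s00012408, in which ONT.7854.1 held 95.0% of reads. The cDNA was amplified and carried no molecular identifiers, and its reads are not independent molecules, so small read counts carry more error than counting alone gives.

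Some isoforms were seen in single libraries. In Glyur000106s00011728, ONT.5158.3 had 13 reads, all in D-1, and in Glyur001849s00031475, ONT.18316.3 had 14 reads, all in D-3. Of 41234 isoforms with at least 10 reads in all, 206 (0.4996%) had all reads in 1 library, against 2 of 69 in the 29 genes. In Glyur000249s00015867, chosen for the plot of isoforms after its values were seen, ONT.8736.3 held all 32 reads of DSi-1, 8 reads in DSi-3 and 7 in D-3, and none in the other 12 libraries. The sum over its isoforms nonetheless stayed between 9.62 and 10.8 CPM in the 6 silicon libraries.

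**Figure D5:**
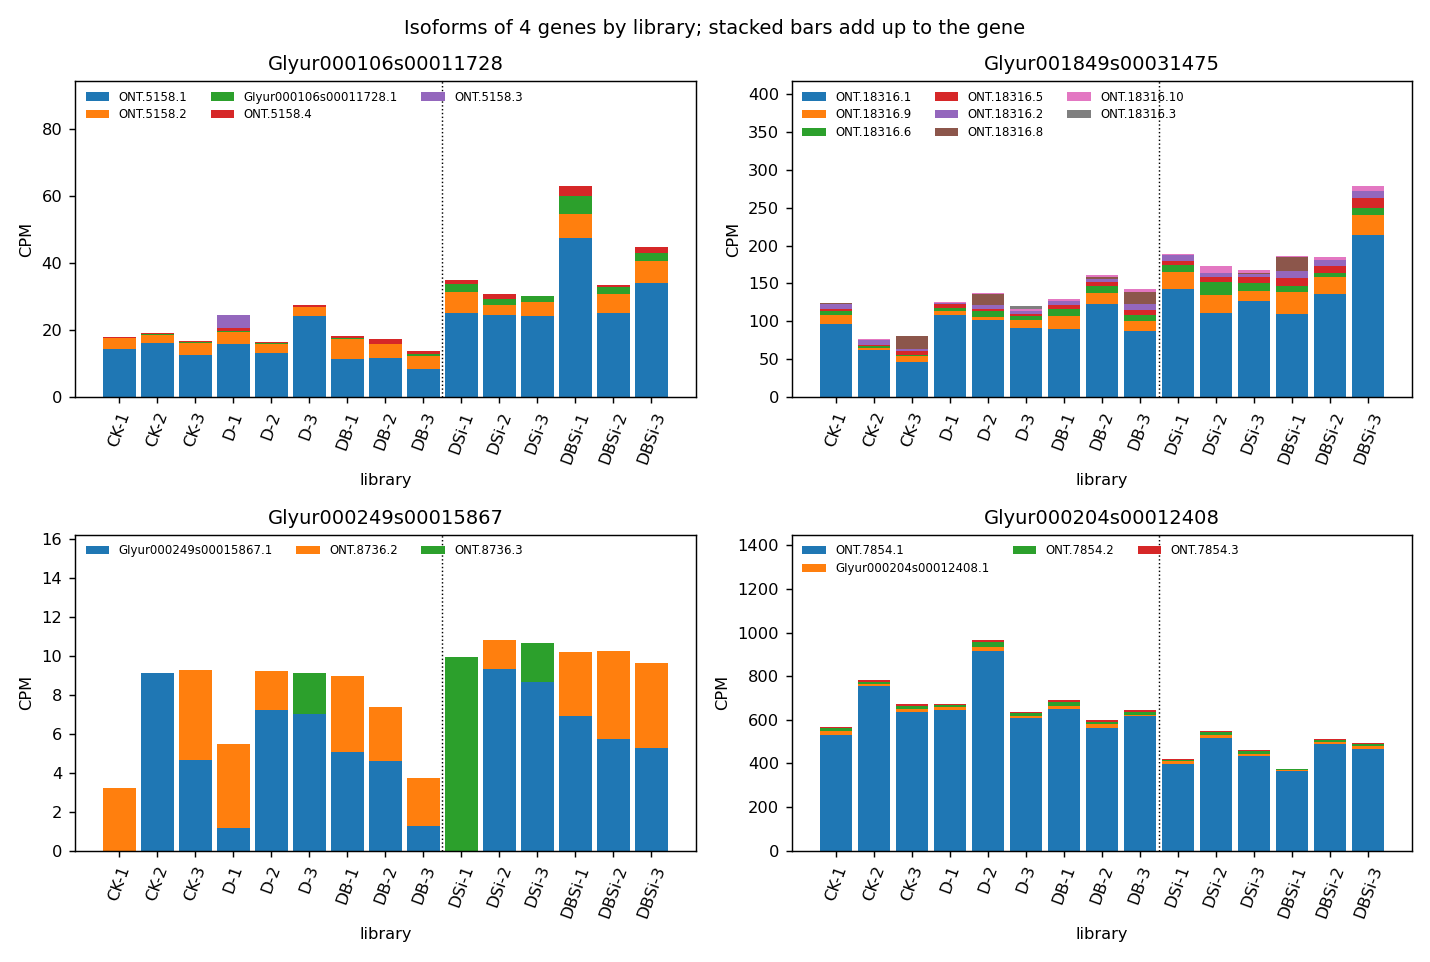
Stacked bars give the CPM of each isoform (colours) of 4 genes in each library, which add up to the CPM of the gene, with silicon libraries right of the dotted line. The leading isoform carries most of the difference in Glyur001849s00031475 and Glyur000204s00012408, while in Glyur000249s00015867 the isoforms replace one another between libraries of a group.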

How the data were processed

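The authors deposited CPM per gene and per isoform, in 15 columns named by library per the file headers. minimap2 is named in the submitters' processing notes. The counter, the build and any versions were not given in the sources used here. Nor was the handling of near-identical genes, between which reads may be divided. All deposited CPM values (100%) came out as whole reads (tolerance 0.01), and 50341895 reads were recovered. Each ± is an SD over libraries or a limma SE from the spread between libraries, and no interval for counting error is given. Sample titles gave the groups and replicate numbers.

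Tests used log2(CPM + 1) in R 4.3.3 and limma 3.58.1 (trend, group as the only factor, all 15 libraries, two-sided) on genes or isoforms with 1 CPM in at least 3 libraries. edgeR 4.0.16 (quasi-likelihood) and DESeq2 1.42.0 on the recovered reads were alternatives, and for silicon over the droughted groups they called 427 and 768 genes against 495 by limma. Tables and figures were made in Python 3.11.15 with pandas 2.3.3, numpy 2.4.6 and matplotlib 3.10.9. Isoforms were placed in genes by ID (27641) or by equal reads in all 15 libraries where only 1 match existed (23750), and 1947 were not placed.

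The 29 genes and the lists were chosen with earlier results of these data known. Named genes were, in each direction, the 2 of widest gap (nearest libraries of the sides, with 1 CPM added to both), the 2 of highest mean CPM, those called for isoform use or interaction (none), and the genes just inside and outside each limit. Glyur001112s00036226, for example, was named as just outside. Glyur000106s00011728, Glyur000404s00017725 and Glyur000249s00015867 were named after their values were seen. Gene lists and organ markers could not be run, because the files hold IDs only.

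On simulated counts for silicon over the droughted groups (22221 genes, 200 of them changed, with means of at least 10 CPM), limma found 98% of the 4-fold changes and 65% of the 2-fold ones, and 7.39% of its calls were false. edgeR gave 99%, 66% and 7.30%, and DESeq2 100%, 72% and 17.3%. diffSplice (7190 genes) gave 65%, 11% and 23.2%. The change placed there was in the level of the leading isoform, in genes with an isoform of at least 10 CPM. At that setting it missed most 2-fold changes, and rarer isoforms were not tried. The isoform test of edgeR was also tried and was dropped, after it had been run on the data, because it missed nearly all of the changes placed in the self-test.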

Additional observations from a re-analysis of the deposited data

How the results depend on the processing

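Depth limits the low genes and isoforms most, since the rarest of the 29 genes rests on 170 reads. Among 15 named genes and 25 alternatives each, the direction of the silicon difference was kept in all 375 cases, with 353 also on the same side of the threshold, 14 falling short of it and 8 passing it. The rule had put all silicon libraries of these genes beyond all D and DB libraries. Leaving out a library could therefore not turn the direction, and nothing is read from its being kept. The rule gave 43 higher genes with CK left out and 21 lower genes with median-of-ratios scaling. Of the lower genes, limma called 1 without the trend and DESeq2 5 for silicon over the droughted groups. For DSi against D, DESeq2 called 2 higher and 2 lower genes. For DBSi against DB, higher calls were 5 with a pseudocount of 2, with a filter at 5 CPM or with median-of-ratios scaling, and 8 with DESeq2, which called 1 lower gene. For DBSi against DSi, higher calls fell to 0 without the trend and with only the compared groups fitted. Isoform use was called in 1 higher gene with no filter. Leaving out each library in turn, members ranged from 17 to 60 (higher) and 12 to 52 (lower), and calls from 6 to 11 and 1 to 3 for silicon, 0 to 0 in both directions for DSi against D, 3 to 8 and 0 to 1 for DBSi against DB, 0 to 2 and 0 to 0 for DBSi against DSi, 0 to 0 for the interaction and 0 to 0 in both directions for isoform use. Fewer libraries make the separation of the rule easier to meet, and the cause of these changes was not tested.

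With the replicate number as a replicate block, limma called 1 lower gene for silicon and 1 for DBSi against DB, and 1 higher gene for DBSi against DSi. Deviations of same-numbered libraries correlated from −0.223 to 0.334 (median −0.0376, 8 of 30 pairs over 0.1), against 20 of 60 pairs over 0.1 among libraries of different number. The highest of all was D-2 with DBSi-2, a pair of the same number. With 3 libraries a group these correlations cannot settle whether the numbers pair the libraries.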
